A study of Mus musculus with 9 samples.

Results

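The weaker of 2 short hairpin RNAs against Rad21 (shRad21_1, 3 libraries) was set against a non-targeting hairpin (shNT, 3 libraries) in mouse neural stem cells, with transcript levels as the readout. These are 6 of the 9 libraries of the study, chosen by the hairpin named in the sample labels, and 13560 genes were measured well enough to be tested. The other 3 libraries, of cells with a second hairpin against the same gene (shRad21_2), are used where the hairpins differ. All groups were primary cultures from E13.5 embryonic cortex and carried the same homozygous floxed Phf2 allele (Phf2flox/flox, labelled wild type, with no Cre named). The medium held 10 ng/mL FGF and 20 ng/mL EGF, the plates were coated with laminin at 5 µg/mL, and the hairpins were delivered by virus. The sources used here give neither the interval from infection to harvest nor whether replicates are separate cultures. With 1 hairpin on each side, an effect of less Rad21 and an effect of the hairpin on other transcripts cannot be told apart in this comparison alone.

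RAD21 is the kleisin subunit of cohesin: it closes the ring formed by SMC1A and SMC3 and binds STAG1 or STAG2. The ring holds sister chromatids together until separase cuts RAD21 at anaphase, and in interphase it extrudes chromatin loops that are halted where CTCF is bound, which brings distant enhancers and promoters into contact. In neural cells the best known genes of this kind are the clustered protocadherins, whose alternative promoters bind CTCF and are chosen with the help of cohesin. Cortical neural stem cells divide under FGF and EGF in culture and can give rise to neurons and, later, to glia.

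Levels are in CPM, counts scaled to the same TMM-adjusted total in every library, and are given for replicates 1, 2 and 3 in that order. Fold changes are log2 values, shRad21_1 minus shNT, with their standard error (SE), from edgeR's quasi-likelihood fit of all 9 libraries. A gene is called where its Benjamini-Hochberg adjusted p over the 13560 genes was under 0.05. Replicates 2 and 3 were unusually close to each other in both groups: a chi-square of their counts came to 3.18 per gene for this pair with shNT and to 2.18 with shRad21_1, against 22.95 to 24.2 and 69.1 to 69.6 for the pairs that include replicate 1. Both close pairs differed by more than counting noise alone, for which the value would be near 1, but this does not show whether they are separate cultures. Each library was counted as a sample, with the close pairs summed as the alternative. Because the count of calls moved with the libraries used, the text rests on genes called in the same direction in the full fit and in each of the 6 fits that leave out 1 shNT or 1 shRad21_1 library. Such a gene is written as held. Where the close pairs were instead summed into 1 sample each, 132 genes were called in place of 1331, and the losses are named for the genes described. Total counts per library ran from 35646421 to 44248371 in the 6 libraries, so that 3 counts, the most that a count of 0 allows, correspond to 0.0665 to 0.0825 CPM.

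Markers of the labelled cell type were detected in all 6 libraries. Of 23 listed neural stem cell markers, 22 were in the table, all were tested and none was at 0. Their levels ranged widely, and not all were abundant: Id4 had 30, 70 and 60 counts with shNT and 46, 75 and 47 with shRad21_1. The intermediate filament gene Nes stood at 1325, 1153 and 1174 CPM with shNT and at 1962, 1191 and 1229 CPM with shRad21_1, and the transcription factor gene Sox2 at 449.8, 369 and 387 and at 267, 381 and 382 CPM. Neither was called. In both genes shRad21_1 replicate 1 lay apart from its group.

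Rad21 itself stood at 531, 449.8 and 456 CPM in the shNT libraries and at 187, 174 and 178 CPM in the shRad21_1 libraries, so that the groups were far apart and replicate 1 did not stand apart in this gene. The mean with shRad21_1 was 37.5% of that with shNT. The change of -1.41 (SE 0.085, adjusted p = 1.66e-04) was held. With shRad21_2 the level was lower again, at 85.3 ± 5.19 CPM (SD, n = 3). The gene lies at chromosome 15, 51962240 to 51991747 in mm10. Phf2, the floxed histone demethylase gene, stood at 152, 142 and 144 CPM with shNT and at 195, 185 and 192 CPM with shRad21_1 (log2 fold change 0.39, SE 0.071, adjusted p = 0.00971); the groups did not overlap, but the call was not held.

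With shRad21_1, 1331 of the 13560 genes were called (9.82%), 568 higher (4.19%) and 763 lower (5.63%). Of these, 404 were held (2.98% of genes tested), 155 higher (1.14%) and 249 lower (1.84%). The median log2 fold change was 0.97 over the higher held genes, of which 74 were at least 2-fold up, and -1.03 over the lower held genes, of which 133 were at least 2-fold down. In all 404 the 3 libraries of one group lay apart from the 3 of the other, as they did in 40.2% of all genes tested. With the close pairs summed, 132 genes were called (0.973%), 64 higher (0.472%) and 68 lower (0.501%), and 131 of them were among the held genes. The count fell to 468 without shNT replicate 2, to 460 without shNT replicate 3, and to 796 and 799 without shRad21_1 replicates 2 and 3. Tspan11 and Rerg lay just inside the threshold and Smc1b and Axl just outside it. In bulk RNA a lower level from fewer cells of a kind and a lower level per cell cannot be told apart.

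**Figure D1:**
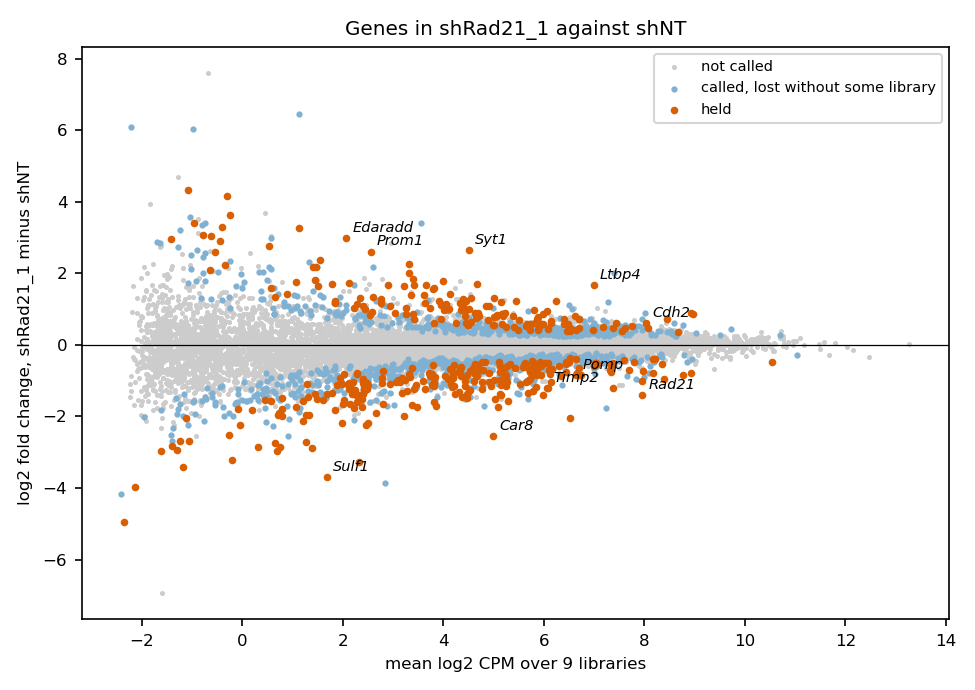
Log2 fold change of each tested gene (shRad21_1 minus shNT) against its mean log2 CPM over all 9 libraries. Grey points were not called, blue points were called but lost the call without some library, and orange points are the 404 held genes, which lie on both sides of 0 at every level of expression.

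Among genes with a mean log2 CPM of at least 1, the 12 with the largest held rises included genes of membrane and vesicle proteins, signalling adaptors and a homeobox factor. Some held genes below that level rose more. Prom1, the membrane glycoprotein prominin-1 of cell protrusions and a stem cell marker, stood at 1.26, 1.63 and 1.15 CPM with shNT and at 8.05, 8.08 and 8.62 CPM with shRad21_1. Its 3 shRad21_1 libraries were close together and 6.10-fold above shNT, or 2.61 (SE 0.18, adjusted p = 1.73e-04) on the log2 scale. Edaradd, the death domain adaptor of the ectodysplasin receptor, rose from 0.990, 1.04 and 0.577 to 8.997, 6.32 and 5.35 CPM (log2 fold change 2.99, SE 0.28, adjusted p = 4.76e-04). Plxdc2, which codes for a transmembrane protein with a plexin domain, rose from 0.632, 0.354 and 0.266 to 5.82, 3.23 and 2.95 CPM (log2 fold change 3.27, SE 0.38, adjusted p = 0.00117). In both genes every shRad21_1 library was several times above every shNT library, and replicate 1 was the highest. Irx5, a transcription factor of the Iroquois homeobox family, rose from 4.54, 3.38 and 3.75 to 15.3, 13.6 and 12.7 CPM (log2 fold change 1.84, SE 0.17, adjusted p = 4.51e-04). Rundc3b, which codes for a RUN domain protein, rose from 1.62, 1.30 and 0.887 to 3.81, 5.15 and 4.44 CPM (log2 fold change 1.82, SE 0.28, adjusted p = 0.00460). In both Irx5 and Rundc3b the groups did not overlap, and replicate 1 lay near the other shRad21_1 libraries.

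In several others the size of the rise depended on shRad21_1 replicate 1. Syt1, the calcium sensor of synaptic vesicle release, stood at 7.18, 8.36 and 8.36 CPM with shNT and at 97.8, 26.5 and 25.6 CPM with shRad21_1. The log2 fold change was 2.65 (SE 0.46, adjusted p = 0.00775), and without replicate 1 it was 1.71. Ache, acetylcholinesterase, rose from 0.990, 0.991 and 0.887 to 8.92, 3.15 and 2.90 CPM (log2 fold change 2.38, SE 0.41, adjusted p = 0.00777). St8sia2, the enzyme that adds polysialic acid to the adhesion molecule NCAM, rose from 2.58, 2.31 and 1.91 to 15.8, 8.67 and 8.40 CPM (log2 fold change 2.27, SE 0.25, adjusted p = 0.00108). In these 3 genes replicate 1 was far above the other shRad21_1 libraries, which were themselves above all shNT libraries. Syt13, a synaptotagmin, went the other way within the group, at 4.98, 4.32 and 4.88 CPM with shNT and at 11.4, 23.6 and 22.2 CPM with shRad21_1 (log2 fold change 2.01, SE 0.34, adjusted p = 0.00725). Samd9l, an interferon-inducible antiviral factor, rose from 1.15, 1.01 and 1.18 to 6.80, 3.84 and 4.47 CPM (log2 fold change 2.17, SE 0.25, adjusted p = 0.00117). Ly6e, which codes for a small membrane-anchored protein also induced by interferon, rose from 0.467, 0.472 and 0.222 to 1.98, 1.81 and 1.49 CPM (log2 fold change 2.19, SE 0.36, adjusted p = 0.00648). Of the 12 genes with the largest held rise at a mean log2 CPM of at least 1, those of Ly6e, Syt13 and Rundc3b lost their calls with the close pairs summed.

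Among abundant transcripts (mean log2 CPM of at least 5) the largest held rise was that of Ltbp4, a matrix protein that binds latent TGF-beta, from 33.2, 47.9 and 53.7 to 87.5, 173 and 171 CPM (log2 fold change 1.68, SE 0.25, adjusted p = 0.00441). Replicate 1 was the lowest library in both of its groups. Scml4, a Polycomb-group-like gene, rose from 16.0, 15.9 and 15.5 to 40.7, 36.6 and 39.7 CPM (log2 fold change 1.30, SE 0.11, adjusted p = 3.46e-04). The transcript 9330188P03Rik rose from 36.8, 44.1 and 44.4 to 95.9, 99.3 and 100.2 CPM (log2 fold change 1.24, SE 0.091, adjusted p = 2.47e-04). Both had tight groups with a wide gap between them. Gjc1, a gap junction connexin, rose by 1.24 (SE 0.11), Gnai1, an inhibitory G protein alpha subunit, by 1.20 (SE 0.13), and Igf2bp2, an RNA-binding protein of growing cells, by 0.98 (SE 0.11). Of these 6, the call of Ltbp4 was lost with the close pairs summed.

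Among genes with a mean log2 CPM of at least 1, the 12 with the largest held falls included modifiers of the extracellular matrix, carbonic anhydrase family members and membrane receptors. Sulf1, the enzyme that removes sulfate groups from heparan sulfate outside the cell, stood at 8.83, 8.59 and 8.25 CPM with shNT and at 0.680, 0.907 and 0.399 CPM with shRad21_1 (log2 fold change -3.69, SE 0.34, adjusted p = 4.45e-04), a 12.9-fold fall. Car8, a carbonic anhydrase-related protein that binds the inositol trisphosphate receptor, fell from 92.6, 72.7 and 72.8 to 7.72, 15.8 and 16.9 CPM (log2 fold change -2.56, SE 0.26, adjusted p = 6.34e-04). Car13, a cytosolic carbonic anhydrase and with Car8 the held part of a list of 27 anhydrases and ion pumps, fell from 8.14, 8.45 and 8.18 to 1.88, 1.55 and 2.05 CPM (log2 fold change -2.18, SE 0.17, adjusted p = 3.46e-04). In all 3 the highest shRad21_1 library was several times below the lowest shNT library. Ankrd34c, an ankyrin repeat gene, fell from 12.4, 14.99 and 12.5 to 0.897, 1.28 and 1.94 CPM (log2 fold change -3.27, SE 0.28, adjusted p = 3.63e-04). Itih5, which codes for a heavy chain that is linked to hyaluronan, fell from 9.10, 5.45 and 4.59 to 0.951, 0.747 and 0.904 CPM (log2 fold change -2.87, SE 0.35, adjusted p = 0.00160). Lrrc32, the cell surface anchor of latent TGF-beta, fell from 5.33, 5.83 and 6.08 to 0.516, 1.28 and 0.824 CPM (log2 fold change -2.71, SE 0.32, adjusted p = 0.00135). The groups were again well separated, and the shNT spread was widest in Itih5, where replicate 1 was the highest.

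Wnt4, a Wnt ligand, fell from 12.5, 13.4 and 14.4 to 2.45, 3.52 and 2.90 CPM (log2 fold change -2.18, SE 0.31, adjusted p = 0.00306). Sez6, a neuronal membrane protein that shapes dendrites and synapses, was the most abundant of the 12, and fell from 171, 228 and 219 to 26.0, 60.5 and 62.7 CPM (log2 fold change -2.05, SE 0.32, adjusted p = 0.00501). Gpr37l1, an orphan receptor of the astrocyte lineage, fell from 13.47, 12.6 and 13.7 to 0.979, 3.55 and 3.94 CPM (log2 fold change -2.23, SE 0.38, adjusted p = 0.00729). In Sez6 and Gpr37l1 replicate 1 was the lowest library, well below the other shRad21_1 libraries. Csdc2, a cold shock domain RNA-binding protein, had the same order within the group, and fell from 18.0, 21.4 and 20.8 to 1.96, 6.83 and 6.33 CPM (log2 fold change -1.99, SE 0.36, adjusted p = 0.00857). As3mt, the arsenite methyltransferase, fell by 2.13 (SE 0.21) and Phyh, the peroxisomal phytanoyl-CoA hydroxylase, by 1.97 (SE 0.27) on the log2 scale. Of the 12 largest falls, the calls of Wnt4, Sez6, Gpr37l1 and Csdc2 were lost with the close pairs summed.

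After Sez6, the largest held falls among abundant transcripts were those of Cacng5, an auxiliary subunit of glutamate receptors and calcium channels, and Emp2, a tetraspan membrane protein. Cacng5 stood at 54.7, 85.9 and 86.9 CPM with shNT and at 21.3, 24.0 and 23.6 CPM with shRad21_1 (log2 fold change -1.72, SE 0.29, adjusted p = 0.00668). Emp2 stood at 67.5, 77.8 and 76.5 and at 17.1, 28.5 and 29.9 CPM (log2 fold change -1.55, SE 0.18, adjusted p = 0.00117). Fstl1, a secreted follistatin-like glycoprotein, stood at 106, 124 and 123 and at 42.1, 46.4 and 44.2 CPM (log2 fold change -1.41, SE 0.10, adjusted p = 2.47e-04). All 3 fell to well under the lowest shNT library. Mylk, the myosin light chain kinase, fell from 80.2, 65.7 and 64.0 to 23.5, 27.9 and 30.1 CPM (log2 fold change -1.36, SE 0.19, adjusted p = 0.00313). The call of Cacng5 was lost with the close pairs summed.

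**Figure D2:**
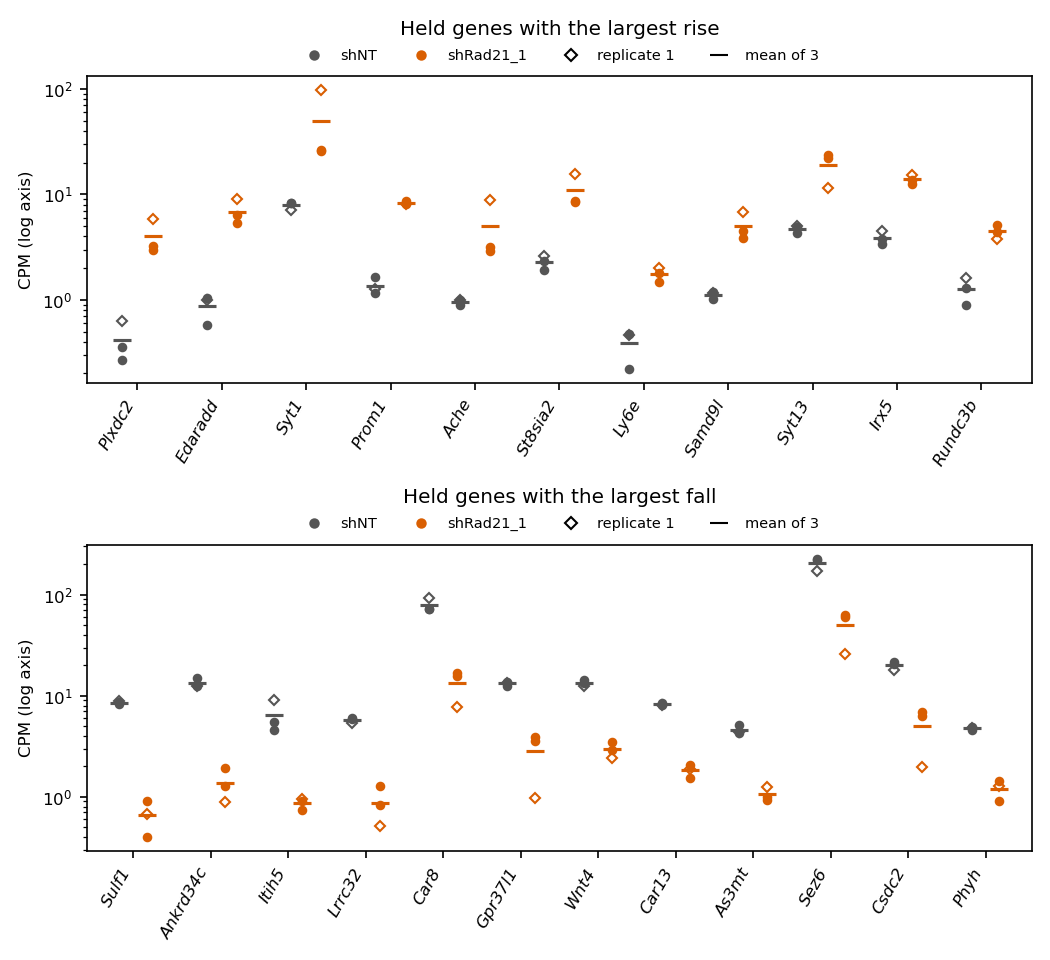
CPM on a log axis in each shNT library (grey) and shRad21_1 library (orange) for 11 of the 12 held genes with the largest rise (top) and the 12 with the largest fall (bottom) among genes with a mean log2 CPM of at least 1. Open diamonds are replicate 1 and short lines are group means (n = 3). The groups do not overlap in any gene shown, and shRad21_1 replicate 1 lies apart from the other shRad21_1 libraries in Syt1, Ache, Gpr37l1 and Csdc2.

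Since CTCF halts the loops that cohesin extrudes, the 250 bases upstream of each gene's start in RefSeq (GRCm38.p6) were searched on both strands for a short form of the CTCF core motif, which reads CCA, any 2 bases, AG, any 2 bases, GGC. A promoter was found for 10263 of the genes tested, and 302 of these held a match (2.94%). A match was in 3 of 103 held higher genes (2.91%), Mgat5b, Rapgef1 and Samd9l, and in 5 of 189 held lower genes (2.65%), Adam17, Gstm6, Rgs9, Ttc39a and Twsg1. Over all 32851 promoters in the table the share was 2.07%. The shares in the held genes were therefore close to that of all genes tested. The promoters of the member with the largest rise and of the member with the largest fall are printed 5′ to 3′ on the strand of the gene, ending just before its start, with the match in capitals. Rgs9, a regulator of G protein signalling, stood at 6.16, 7.86 and 6.94 CPM with shNT and at 1.44, 2.96 and 2.79 CPM with shRad21_1 (log2 fold change -1.54, SE 0.27, adjusted p = 0.00783); it and the other motif holders are named with their values known, and the calls of all 5 that fell were lost with the close pairs summed. The match in Samd9l, at chr6:3399572-3399821 on the minus strand, begins 50 bases before the start, and that in Rgs9, at chr11:109298182-109298431 on the minus strand, begins 89 bases before it and reads on the opposite strand. A match describes letters and not a bound site.
Samd9l: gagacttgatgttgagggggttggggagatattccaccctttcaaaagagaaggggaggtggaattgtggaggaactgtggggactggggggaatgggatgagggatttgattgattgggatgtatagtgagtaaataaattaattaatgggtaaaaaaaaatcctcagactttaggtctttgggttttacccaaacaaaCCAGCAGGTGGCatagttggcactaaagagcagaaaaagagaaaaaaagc
Rgs9: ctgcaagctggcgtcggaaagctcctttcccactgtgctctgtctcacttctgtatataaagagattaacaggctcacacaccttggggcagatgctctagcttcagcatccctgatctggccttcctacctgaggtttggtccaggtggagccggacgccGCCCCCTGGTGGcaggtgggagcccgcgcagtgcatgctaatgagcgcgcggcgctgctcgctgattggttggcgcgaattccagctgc

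Genes were then grouped by function. The share of all genes tested that was held, 1.14% higher and 1.84% lower, is the background for the held members of every list. For members called in the full fit it is 4.19% higher and 5.63% lower. For members with an unadjusted p under 0.05 it is 3595 of the 13560 genes. The median log2 fold change over all genes was 0.0052. The lists are described by counts and values, with no test of the list.

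Genes of the Wnt pathway, in which secreted Wnt ligands bind Frizzled receptors to stabilise beta-catenin or to act without it, had the largest share of held falls: 6 of 47 tested members fell and 3 rose, with a median of -0.11. Of the ligands, Wnt7a fell from 79.3, 64.6 and 66.2 to 14.0, 30.5 and 29.1 CPM (log2 fold change -1.51, SE 0.24, adjusted p = 0.00517), Wnt5b fell by 1.25 on the log2 scale, and Wnt4 fell as described. Of the receptors, Fzd10 fell from 65.6, 58.4 and 57.8 to 17.2, 25.7 and 25.7 CPM (log2 fold change -1.40, SE 0.15, adjusted p = 7.92e-04). The receptor tyrosine kinase Ror2, which binds Wnt5 ligands, rose from 10.6, 12.1 and 11.04 to 22.7, 26.5 and 23.6 CPM (log2 fold change 1.11, SE 0.11, adjusted p = 6.34e-04), and the receptor Fzd4 rose by 0.62. Secreted or membrane inhibitors fell too, Dkk3 by 1.11 and Kremen1 by 0.50, while Tcf7l1, a largely repressive nuclear partner of beta-catenin, rose by 1.08. The held ligands all fell, the held receptors included both rises and falls, and the held nuclear factor, Tcf7l1, rose. With the close pairs summed, Ror2, Tcf7l1, Wnt7a and Fzd10 were called and the other 5 were not. Dkk3, Kremen1, Fzd4 and Tcf7l1 are named after their values were seen, because they complete the count.

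Of 45 tested genes of TGF-beta and BMP signalling, 3 rose and 4 fell among the held genes (median 0.13). The receptor Tgfbr2 stood at 115, 128 and 125 CPM with shNT and at 90.9, 57.8 and 58.3 CPM with shRad21_1 (log2 fold change -0.83, SE 0.15, adjusted p = 0.00981), with replicate 1 nearest to shNT. Nrep, a neuronal regeneration protein, fell by 0.77. In the other direction, the receptor Acvr1 rose by 0.56 and the intracellular mediator Smad3 by 0.60. The latent TGF-beta binders went in opposite directions, Ltbp4 up and Lrrc32 down, as given, and Fstl1 fell. With the close pairs summed, Fstl1 and Lrrc32 were called and the other 5 were not.

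In the Notch list 0 of 27 tested genes had a held rise and 2 a held fall, Dll3, an inhibitory Delta-like ligand, by 1.28 and Dner, a Notch-binding membrane protein, by 0.83. Without the condition of being held, edgeR called 2 higher, Jag2 and Maml3, and 4 lower, Dll3, Dner, Nrarp and Lfng. DESeq2 and limma-voom also called 2 higher, and 10 of the 27 had an unadjusted p under 0.05. Of 38 genes of FGF and EGF signalling, Fgfr2 fell from 23.1, 22.7 and 23.1 to 11.5, 14.0 and 14.3 CPM (log2 fold change -0.79, SE 0.11, adjusted p = 0.00259), and Fgf13 rose from 4 counts in all over the 3 shNT libraries to 42 over the 3 shRad21_1 libraries. The medium supplies the ligands of both families in all groups. Of 17 Hedgehog genes, Gli3, the transcription factor that acts mainly as a repressor of the pathway, rose by 0.80. The calls of Dll3, Fgfr2 and Gli3 were lost with the close pairs summed.

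Matrix genes moved in both directions. Of 30 tested genes of heparan sulfate enzymes and proteoglycans, 3 fell and 1 rose among the held genes. Beside Sulf1, the sulfotransferases Hs3st1 and Hs3st3b1 fell by 1.66 and 0.72, and the glypican Gpc6 rose from 28.2, 26.8 and 23.6 to 41.9, 47.3 and 47.2 CPM (log2 fold change 0.79, SE 0.13, adjusted p = 0.00586). Of 30 collagen genes, the paired basement membrane chains Col4a1 and Col4a2 fell by 0.50 and 0.77, and Col27a1 rose by 1.15. Timp2, an inhibitor of matrix metalloproteinases, was among the most firmly separated genes, at 128, 129.8 and 129 CPM with shNT and at 61.3, 53.4 and 52.2 CPM with shRad21_1 (log2 fold change -1.21, SE 0.078, adjusted p = 1.66e-04). The laminin chain Lamb2 and the integrin Itga6 fell by 0.67 and 0.51. From low levels, the lectican Acan rose from 15 to 103 counts and the laminin chain Lama1 from 13 to 101 counts, each summed over 3 libraries. Summing the close pairs ended the calls of Hs3st1, Hs3st3b1, Gpc6, Col4a1, Col27a1, Acan, Itga6 and Lamb2.

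Adhesion and guidance genes gave small counts. Of 31 cadherins and delta protocadherins, Cdh2, the N-cadherin of neural stem cell junctions, rose from 232, 228 and 216 to 357, 344 and 336 CPM (log2 fold change 0.62, SE 0.067, adjusted p = 8.43e-04), and Clstn2, a calsyntenin, fell by 1.73. Cdh23 rose from 8 to 95 counts summed over 3 libraries. Of 49 genes of neural adhesion and synapse organisation, 2 rose and 2 fell: the adhesion molecule Nrcam fell from 103, 107 and 108 to 33.0, 55.3 and 52.5 CPM (log2 fold change -1.18, SE 0.18, adjusted p = 0.00460), Slitrk6 fell by 1.64, and Lrrtm4 and St8sia2 rose. Of 66 axon guidance genes, the semaphorin receptor Plxna4 rose by 1.15 and 3 relatives fell, Plxnb3 by 0.93, Plxnc1 by 0.86 and Nrp2 by 0.85. Summing the close pairs ended the calls of Clstn2, Plxna4, Plxnb3 and Nrp2.

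Genes of excitability and the synapse had held falls in all 3 lists and held rises in 2 of them. Of 52 voltage-gated channel genes, 2 fell among the held genes, Cacng5 and Kcnmb4, a subunit of the BK potassium channel, which stood at 56.0, 56.7 and 56.0 CPM with shNT and at 19.5, 31.0 and 32.1 CPM with shRad21_1 (log2 fold change -1.03, SE 0.16, adjusted p = 0.00530). None had a held rise. Without the condition of being held, edgeR called 0 higher and 7 lower, and limma-voom called 0 higher and DESeq2 1. An unadjusted p under 0.05 in either direction was found in 16 of the 52. Of 43 transmitter receptors, Grid1 and Grm3 rose, by 0.74 and 1.03, and among those with a held fall was Grin3a, a subunit of NMDA receptors. Of 48 vesicle and granule genes, Syt1 and Syt13 rose, and 3 fell. These were the synapsin Syn2, by 1.01, the granin Scg3, by 1.39, and Scg5, a chaperone of a prohormone convertase, from 46 counts in all to 1 count. The median log2 fold change was -0.13, -0.10 and -0.16 in the 3 lists. After summing the close pairs, Grin3a, Syt1 and Scg3 kept their calls, and those of Grid1, Grm3, Syt13, Syn2, Scg5 and both channels were lost.

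Regional patterning genes gave held rises and no held fall: 4 of 54 homeobox and related factors rose (median 0.084). Irx3 rose from 4.04, 3.73 and 3.55 to 7.94, 9.77 and 10.1 CPM (log2 fold change 1.30, SE 0.17, adjusted p = 0.00254) together with its neighbour Irx5. Nr2f2, an orphan nuclear receptor of caudal and ventral forebrain, rose by 1.09 and the zinc finger factor Bcl11a by 1.57. Without being held, 5 more were called higher and 4 lower, among them Six3, Pou3f2 and En2, and 0 of those called lower were called without shNT replicate 3 or without shRad21_1 replicate 2. Among 22 proneural and SOX factors, 0 were held, 1 was called (Neurod4, from 90 to 16 counts in all) and 10 had an unadjusted p under 0.05. DESeq2 called 4 higher and 2 lower, and limma-voom 0 and 2. The calls of Irx3, Nr2f2 and Bcl11a were lost with the close pairs summed.

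Among the cohesin and CTCF genes, 2 of 18 tested rose beside the fall of Rad21. Stag1, a subunit that binds RAD21, rose from 114, 102 and 102 to 172, 158 and 154 CPM (log2 fold change 0.61, SE 0.085, adjusted p = 0.00303), and Esco1, an acetyltransferase of SMC3, rose by 0.54. Both calls were lost with the close pairs summed. In 72 histone methylation and Polycomb genes, Phf8, a histone demethylase of the same family as Phf2, fell from 40.4, 38.8 and 38.3 to 16.7, 16.7 and 19.5 CPM (log2 fold change -1.15, SE 0.094, adjusted p = 3.46e-04), and the Polycomb subunit Cbx2 rose by 0.57. With 1 of 72 held in each direction, the share was near the background. Of 32 imprinted genes, Ndn, necdin, rose by 0.51 and Asb4 fell from 188 to 30 counts in all. The calls of Cbx2 and Ndn were lost with the close pairs summed.

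Targets of p53, the transcription factor activated by DNA damage and other stress, had the highest median of the functional lists, 0.50 over 37 tested genes. Among the held genes, 3 rose and 1 fell: Plk2, a polo-like kinase, by 0.90, Pidd1, a death domain protein, by 0.90, Gadd45a, a growth arrest gene, by 0.71, and Sesn1, a sestrin, fell by 0.58. In the full fit 11 were called higher, among them Ccng1, Bax and Perp, and 3 lower, Sesn1, Btg2 and Plk3. The summed level of the 37 genes was 3213, 3201 and 3179 CPM with shNT and 5861, 3864 and 3846 CPM with shRad21_1, so that replicate 1 was far above all other libraries. Of the 37, 3 were called higher without shNT replicate 2 or 3 and 5 without shNT replicate 1. The calls of Gadd45a and Sesn1 were lost with the close pairs summed.

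Of 40 cytokine, chemokine and complement genes, 4 were called higher and 7 lower, and 20 had an unadjusted p under 0.05. The list's median was -0.47. Among the held genes Tnfrsf12a, the TWEAK receptor, rose by 1.10 with Edaradd, and Lifr, the LIF receptor, Csf1, a macrophage growth factor, and Tnfrsf21, a death receptor, fell by 0.71, 0.76 and 0.47. Of 39 interferon-stimulated genes, Ifi27 and Samd9l rose, and the median was -0.09. In full, 3 were called higher and 1 lower, Usp18 and Bst2 being the other two. The summed level of the 39 was 362, 352 and 347 CPM with shNT and 386, 357 and 359 CPM with shRad21_1, where replicate 1 was the highest and the others lay within the shNT range. The median level relative to the shNT mean, in log2 with 0.1 CPM added, was -0.229, -0.085 and -0.106 in the shRad21_1 libraries. By this measure replicate 1 was the lowest. The calls of Lifr, Csf1 and Tnfrsf21 were lost with the close pairs summed.

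Housekeeping lists gave few calls in the fit of all 9 libraries. Of 73 genes of DNA replication and mitosis 0 were called by edgeR, 3 had an unadjusted p under 0.05, limma-voom called 0 and DESeq2 2. Their log2 fold changes ran from -0.77 to 0.17. Of 43 genes of the unfolded protein and integrated stress responses 0 were called by edgeR, 7 had an unadjusted p under 0.05, limma-voom called 0 and DESeq2 3. Of 75 oxidative phosphorylation genes, 4 were called lower and 0 were held, and 0 were called once any 1 of the 6 libraries was left out; 22 of the 75 had an unadjusted p under 0.05, and the median was -0.15. In a fit of the 6 libraries alone 16 of the 75 were called lower, and 33 without shRad21_1 replicate 1 in that fit. Of all 13560 genes, 851 and 1816 were called lower in these fits, a smaller share than in the list. Of 42 proteasome genes, Pomp, the chaperone that assembles the core particle, was the 1 gene called, and its call was held. Of 51 translation factors 3 were called higher and 1 lower, and 0 were held, with 12 at an unadjusted p under 0.05. Of 37 genes of cholesterol and fatty acid synthesis, 2 were called higher, Sqle and Cyp51, and 1 lower. The fall was that of Me1, malic enzyme, by 0.54. It was the 1 held call of the list, and it was lost with the close pairs summed. Of 27 contractile genes and targets of SRF and YAP, 1 was called in each direction, Myh10 and Tagln3, and 0 were held, with 8 at an unadjusted p under 0.05.

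**Figure D3:**
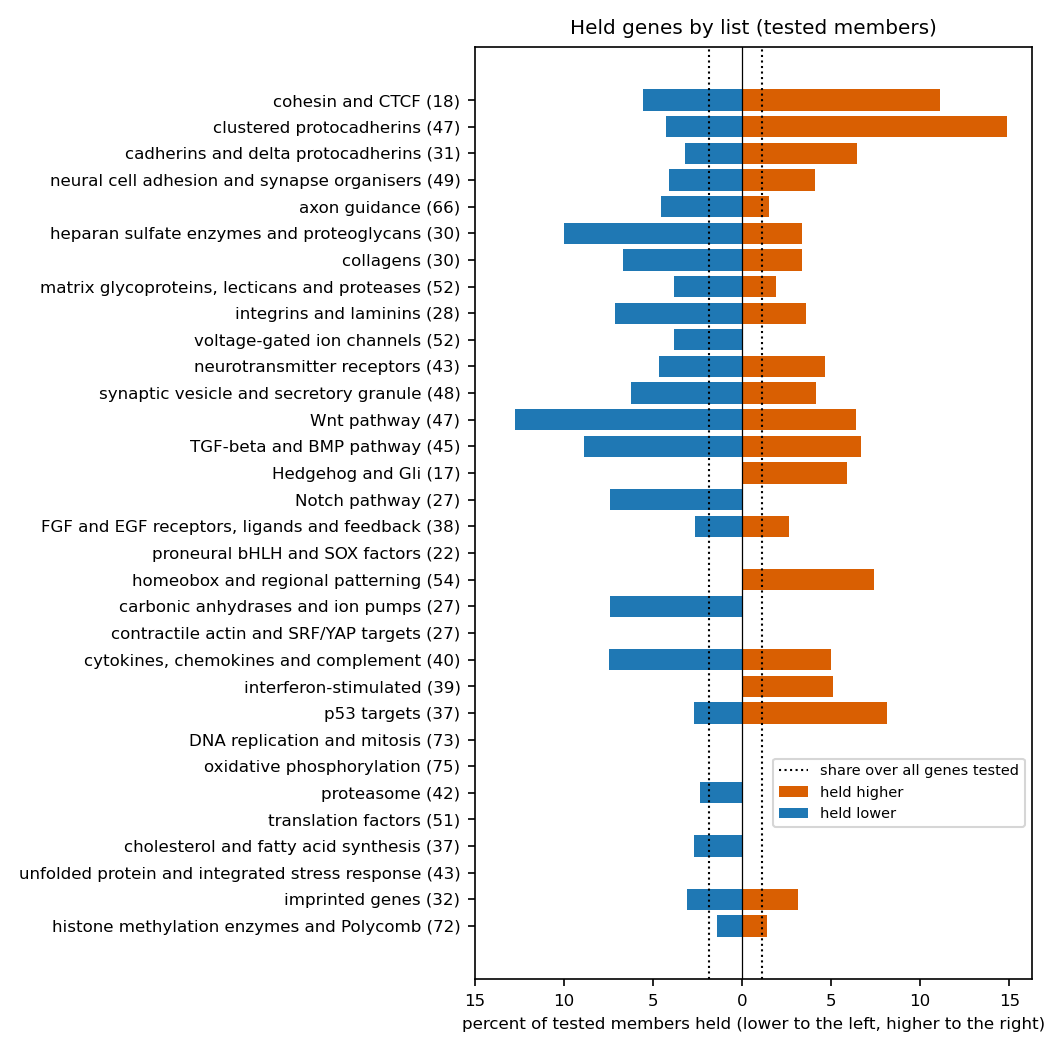
Percent of the tested members of each list (number in brackets) that were held higher (orange, right) or lower (blue, left). Dotted lines mark the shares over all 13560 genes, 1.14% higher and 1.84% lower. The Wnt list reaches farthest to the left and the clustered protocadherins farthest to the right. The proneural and SOX, contractile, replication, oxidative phosphorylation, translation factor and stress response lists have no bar.

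Markers of other cells were read beside these groups. The summed level of 14 tested astrocyte markers was 1869, 1890.2 and 1871 CPM with shNT and 991, 1716 and 1710.2 CPM with shRad21_1: replicate 1 was far below the other 5 libraries, and the other shRad21_1 libraries were slightly below shNT. The median marker level relative to the shNT mean, in log2 with 0.1 CPM added, was -1.345, 0.076 and 0.071 in the shRad21_1 libraries. By this measure only replicate 1 was below shNT. Of these 14, 0 were held and 1 was called lower, Glul, with 4 at an unadjusted p under 0.05. For 16 neuron markers the summed level was 1416, 1315 and 1300.0 CPM with shNT and 1313, 1261 and 1257 CPM with shRad21_1. Among the held genes Syt1 rose and Gad1, a GABA synthesis enzyme, fell by 1.07. In the full fit 2 of the 16 were called higher, Syt1 among them, and 3 lower, Gad1, Gap43 and Mapt. An unadjusted p under 0.05 was found in 9. For 11 oligodendrocyte lineage markers the summed level was 3212, 3084 and 3112 CPM with shNT and 3350.2, 3519 and 3511 CPM with shRad21_1. Most of this sum came from Olig1 and Olig2. The median marker level relative to the shNT mean, in log2 with 0.1 CPM added, was -0.633, 0.018 and 0.051 in the shRad21_1 libraries. Replicate 1 was thus below the others by this measure. Of the 11, 0 were held, 1 was called lower, Pdgfra, and 5 had an unadjusted p under 0.05. The part of these levels in the changes of single genes was not tested.

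Of the 33 listed markers of ciliated cells, 17 were tested and 3 were at 0 (Gmnc, Tmem212 and Fam183b). Foxj1, the transcription factor of motile cilia, fell from 33.0, 36.9 and 39.0 to 12.9, 14.2 and 14.6 CPM (log2 fold change -1.38, SE 0.18, adjusted p = 0.00188). Hydin, a protein of motile cilia, was called higher by 3.41 (adjusted p = 0.0226) without being held, and replicate 1 was far above the other shRad21_1 libraries, at 21.0, 2.72 and 2.85 CPM. In sum the 17 stood at 104, 107 and 105 CPM with shNT and 104, 92.5 and 94.97 CPM with shRad21_1. Of 14 microglia markers 3 were tested and 7 were at 0 in all 6 libraries (Aif1, Cx3cr1, C1qa, C1qb, C1qc, Trem2 and Tyrobp). The 7 tested endothelial markers summed to 9.21, 10.9 and 11.2 CPM with shNT and 17.0, 9.42 and 9.20 CPM with shRad21_1, and 0 were called by edgeR or limma-voom and 1 by DESeq2, with 1 at an unadjusted p under 0.05. The 7 tested mesenchymal markers summed to 217, 237 and 229 CPM with shNT and 176, 208 and 199 CPM with shRad21_1, with Dcn and Foxd1 at 0; 1 was called lower, Prrx1. Among the neural stem cell markers, Prom1 and Gli3 rose among the held genes, and 0 had a held fall. In the full fit 3 of the 22 were called higher, Hmga2 being the third, and 1 lower, Ednrb. An unadjusted p under 0.05 was found in 8, and the median log2 fold change was -0.099. The 22 summed to 12212, 12305 and 12245 CPM with shNT and 10385, 12009.7 and 12037 CPM with shRad21_1, where replicate 1 was again the lowest. The calls of Gad1 and Gli3 were lost with the close pairs summed.

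The 2 hairpins were then compared directly, shRad21_2 minus shRad21_1, a contrast in which 3563 of the 13560 genes were called (26.3%; 11.9% higher and 14.4% lower). Of the 404 genes held under shRad21_1, 156 were called farther from shNT with shRad21_2 and 68 were called in the opposite direction. In 75 of the 155 risen and 105 of the 249 fallen genes the hairpins were not called apart. The contrast between the hairpins shares the shRad21_1 libraries with that of shRad21_1 against shNT. These counts therefore describe the genes and are no separate support. In the 36 risen genes that were lower with shRad21_2, the median log2 fold change against shNT was 1.16 with shRad21_1 and 0.31 with shRad21_2. In the 32 fallen genes that were higher with shRad21_2, it was -0.98 and -0.19. In 46 of the 68 the level with shRad21_2 was not called against shNT, a comparison in which 43.6% of all genes were called. The 68 were chosen because shRad21_2 moved them back from their shRad21_1 level, so that this count and these medians partly follow from the choice. In the comparison of shRad21_2 with shNT, 129 of the 155 risen and 225 of the 249 fallen genes were called in the same direction as with shRad21_1. In the opposite direction 1 and 3 were called. Both hairpins were set against the same shNT libraries, so that these counts too are no separate support.

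Several of these 68 genes had tight libraries in all 3 groups. Ifi27, an interferon-induced gene, stood at 14.3, 14.8 and 16.1 CPM with shNT, at 33.3, 34.8 and 37.6 CPM with shRad21_1 and at 17.3, 13.8 and 14.7 CPM with shRad21_2. It rose with shRad21_1 by 1.23 (SE 0.11, adjusted p = 3.63e-04), and the 2 hairpins differed by -1.20 (SE 0.11, adjusted p = 9.34e-05). Samd9l, in the same list, stood at 1.67 ± 0.237 CPM (SD, n = 3) with shRad21_2 and differed by -1.58 (SE 0.24, adjusted p = 0.00170). In both genes the shRad21_2 libraries lay near those of shNT. Phf8, the demethylase gene, stood at 36.0 ± 2.48 CPM with shRad21_2, close to its shNT level, and differed by 1.03 (SE 0.094, adjusted p = 1.05e-04). Pomp stood at 109, 105 and 111 CPM with shNT, at 57.7, 60.5 and 62.3 CPM with shRad21_1 and at 125, 122 and 146 CPM with shRad21_2 (log2 difference 1.12, SE 0.083, adjusted p = 4.68e-05). In Pomp every shRad21_1 library was far below the other 6, and shRad21_2 was the highest group.

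Genes of membrane and adhesion proteins had some of the largest of these differences. Syt1 stood at 9.92 ± 0.116 CPM with shRad21_2 and differed by -2.33 (SE 0.45, adjusted p = 0.00561). Syt13 differed by -1.72 (SE 0.34, adjusted p = 0.00602). Ptprt, a receptor tyrosine phosphatase of cell adhesion, stood at 6.96, 5.48 and 6.12 CPM with shNT, 29.0, 15.8 and 14.6 CPM with shRad21_1 and 5.12, 7.48 and 5.28 CPM with shRad21_2 (log2 difference -1.73, SE 0.27, adjusted p = 0.00175). In these 3 the shRad21_2 libraries were close to shNT and under every shRad21_1 library. Grm3, a metabotropic glutamate receptor, differed by -1.31 (SE 0.18, adjusted p = 9.87e-04). Cdh2 stood at 213 ± 9.34 CPM with shRad21_2 and differed by -0.70 (SE 0.067, adjusted p = 1.31e-04), and Gpc6 differed by -0.91 (SE 0.13, adjusted p = 0.00113).

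In the other direction, 5 fallen genes had the largest return with shRad21_2 among genes with a mean log2 CPM of at least 1. Plp2, a proteolipid of membrane compartments, stood at 12.1, 16.2 and 15.2 CPM with shNT, 2.66, 5.90 and 5.03 CPM with shRad21_1 and 14.1, 9.03 and 12.2 CPM with shRad21_2 (log2 difference 1.38, SE 0.27, adjusted p = 0.00599). Pdlim1, a cytoskeletal PDZ and LIM domain protein, stood at 12.2, 12.2 and 10.9 CPM with shNT, 4.13, 5.36 and 4.87 CPM with shRad21_1 and 13.1, 11.2 and 12.6 CPM with shRad21_2 (log2 difference 1.36, SE 0.13, adjusted p = 1.51e-04). Fndc3c1, a fibronectin type III domain gene, stood at 15.2, 14.9 and 15.7 CPM with shNT, 7.15, 6.56 and 5.80 CPM with shRad21_1 and 15.9, 16.1 and 13.1 CPM with shRad21_2 (log2 difference 1.21, SE 0.12, adjusted p = 1.85e-04). In Pdlim1 and Fndc3c1 the shRad21_2 libraries overlapped those of shNT and lay well above all shRad21_1 libraries. Thy1, a surface glycoprotein of neurons and other cells, differed by 1.25 (SE 0.22, adjusted p = 0.00318) and Wipf3, an actin regulator, by 1.23 (SE 0.31, adjusted p = 0.0161). Tgfbr2 stood at 126 ± 1.57 CPM with shRad21_2 and differed by 0.87 (SE 0.15, adjusted p = 0.00356). Ifi27, Pomp, Phf8, Cdh2, Gpc6 and Tgfbr2 are named in this respect after their values were seen. With the close pairs summed, the calls against shNT of Syt13, Grm3, Gpc6, Tgfbr2, Plp2, Thy1 and Wipf3 were lost.

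**Figure D4:**
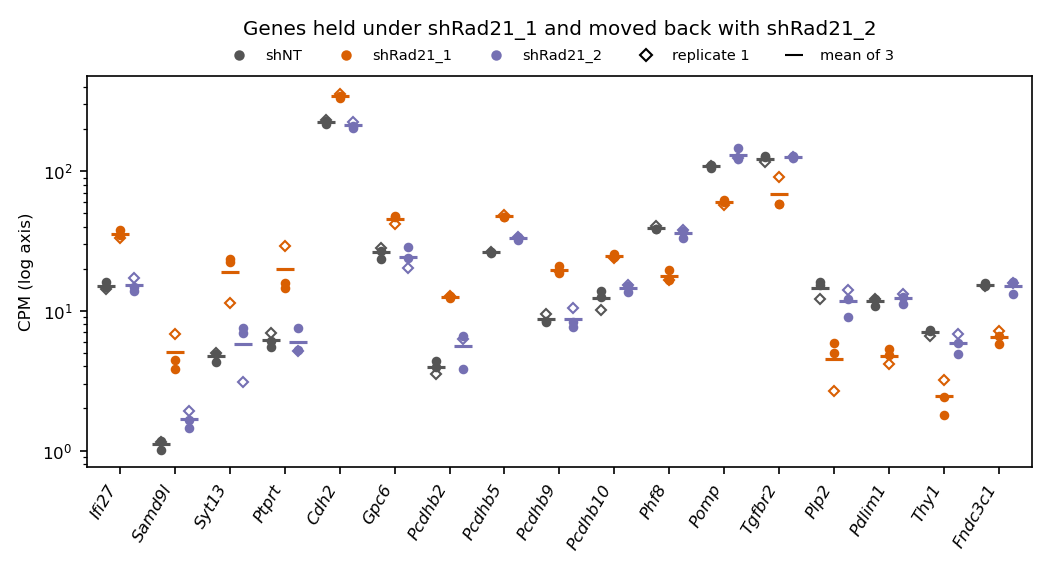
CPM on a log axis in each library of shNT (grey), shRad21_1 (orange) and shRad21_2 (purple) for 17 genes that were held under shRad21_1 and were called in the opposite direction between the hairpins. Open diamonds are replicate 1 and short lines are group means (n = 3). The shRad21_2 points lie near the shNT points in Ifi27, Pcdhb9, Phf8 and Fndc3c1, where the shRad21_1 points stand apart.

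The clustered protocadherins, homophilic adhesion molecules that give single neurons their surface identity, split by cluster. In the beta cluster 10 of 21 tested genes were called higher and 0 lower, and 7 were held; the median log2 fold change was 0.56. The summed level of the 21 was 166, 197 and 189 CPM with shNT and 269, 277 and 269 CPM with shRad21_1, so that the groups did not overlap and replicate 1 did not stand apart. With shRad21_2 the sum was 181, 199 and 161 CPM, and 15 of the 21 were called lower with shRad21_2 than with shRad21_1. Pcdhb5 stood at 26.3, 26.0 and 26.3 CPM with shNT and at 48.2, 46.8 and 47.1 CPM with shRad21_1 (log2 fold change 0.85, SE 0.071, adjusted p = 3.46e-04). Pcdhb9 stood at 9.54, 8.36 and 8.43 CPM with shNT, at 19.2, 20.9 and 18.6 CPM with shRad21_1 and at 10.5, 8.27 and 7.62 CPM with shRad21_2. Its rise was 1.16 (SE 0.14, adjusted p = 0.00125), and the hairpins differed by -1.15 (SE 0.14, adjusted p = 4.25e-04). Pcdhb2 rose from 3.52, 4.39 and 3.97 to 12.7, 12.4 and 12.7 CPM (log2 fold change 1.67, SE 0.20, adjusted p = 0.00135), and Pcdhb3 by 1.34, Pcdhb4 by 0.88, Pcdhb10 by 1.00 and Pcdhb15 by 1.10.

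In the gamma cluster 0 of 22 tested genes were called higher and 6 lower, and 2 were held, Pcdhga7 and Pcdhga10, with a median of -0.70. Pcdhga10 fell from 6.41, 5.26 and 4.97 to 1.96, 2.03 and 1.70 CPM (log2 fold change -1.55, SE 0.22, adjusted p = 0.00323). The summed level was 1832, 1820.4 and 1792 CPM with shNT, 1802, 1578 and 1574 CPM with shRad21_1 and 1187, 1067 and 1047 CPM with shRad21_2, so that replicate 1 of shRad21_1 was within the shNT range and the other 2 libraries were below it. DESeq2 and limma-voom called 11 and 9 of all 47 clustered protocadherins lower. In the alpha cluster 4 genes were tested, 1 was called higher, Pcdha9, and 0 were held. Members of the alpha and gamma clusters share their constant exons and beta members are similar copies, so that counts could be split between them in ways the deposited table does not show. With the close pairs summed, Pcdhb2, Pcdhb3, Pcdhb5, Pcdhb9 and Pcdhb10 kept their calls and the other 4 held members lost them. Without shNT replicate 3, 7 members were called higher and 2 lower.

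The library shRad21_1 replicate 1 stood apart in many genes. Among 11491 genes with a mean log2 CPM of at least 1, 187 (1.63%) were at least 2-fold above both other shRad21_1 libraries in replicate 1 and 302 (2.63%) at least 2-fold below both. For shNT replicate 1 these numbers were 8 and 51. Of the 187 genes 20 were called and 2 held, and of the 302 genes 30 were called and 6 held, shares of calls close to the 9.82% over all genes tested. Rad21 was at a like level in the 3 libraries, as given. These genes were chosen by the values of that library, and what follows is a description.

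In the 302 genes below, the other libraries of the study fell into 2 sets. Relative to shRad21_1 replicates 2 and 3, the median was -1.46 on the log2 scale in replicate 1, -1.50 to -1.56 in the shRad21_2 libraries, and -0.037 to 0.21 in the shNT libraries. In these genes replicate 1 was thus at the level of the other hairpin. In the 187 genes above, the median was 1.42 in replicate 1, 0.21 to 0.44 in the shRad21_2 libraries and 0.25 to 0.41 in the shNT libraries, so that the median of replicate 1 was above that of every other library.

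Single genes showed both kinds. The collagen VI chains Col6a1 and Col6a2 were low in the first library of both groups: Col6a1 stood at 5.77, 73.2 and 71.2 CPM with shNT and at 6.55, 109 and 114 CPM with shRad21_1, and Col6a2 at 1.68, 27.5 and 26.3 CPM with shNT and 1.60, 36.1 and 37.5 CPM with shRad21_1. With shRad21_2 the chains stood at 0.932 ± 0.130 and 0.112 ± 0.0225 CPM (SD, n = 3). Hes5, a transcription factor that Notch induces, was low in shRad21_1 replicate 1 but not in shNT replicate 1, at 35.5, 47.0 and 48.1 CPM with shNT and 2.61, 39.6 and 45.1 CPM with shRad21_1. Cers1, a ceramide synthase, stood at 24.6, 28.5 and 28.8 CPM with shNT and 0.0544, 17.3 and 13.46 CPM with shRad21_1, where the first shRad21_1 value is under the limit of 3 counts. Fosb, an immediate early gene, stood at 14.2, 24.7 and 22.0 CPM with shNT and 1.01, 18.0 and 20.2 CPM with shRad21_1, and at 0.957 ± 0.0550 CPM with shRad21_2. Of those above, Gmpr, a GMP reductase, stood at 12.3, 13.1 and 12.2 CPM with shNT and 64.5, 8.62 and 8.35 CPM with shRad21_1, and Clic5, a chloride channel-like protein, at 43.9, 50.1 and 48.9 CPM with shNT and 203, 30.4 and 29.5 CPM with shRad21_1. In both, replicates 2 and 3 were below shNT and replicate 1 was far above it, and with shRad21_2 they stood at 12.4 ± 3.49 and 68.5 ± 6.16 CPM. Hydin stood at 0.962, 0.779 and 0.754 CPM with shNT and 21.0, 2.72 and 2.85 CPM with shRad21_1, and at 25.3 ± 5.56 CPM with shRad21_2. Col28a1, a collagen, stood at 4.21, 2.81 and 3.26 CPM with shNT and 28.5, 3.23 and 4.02 CPM with shRad21_1, and at 45.0 ± 4.21 CPM with shRad21_2. In Hydin and Col28a1 the mean with shRad21_2 was above replicate 1. Klhdc7a, a kelch domain gene, stood at 15.01, 9.39 and 11.5 CPM with shNT and 66.8, 10.0 and 10.00 CPM with shRad21_1, and at 17.4 ± 8.54 CPM with shRad21_2.

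**Figure D5:**
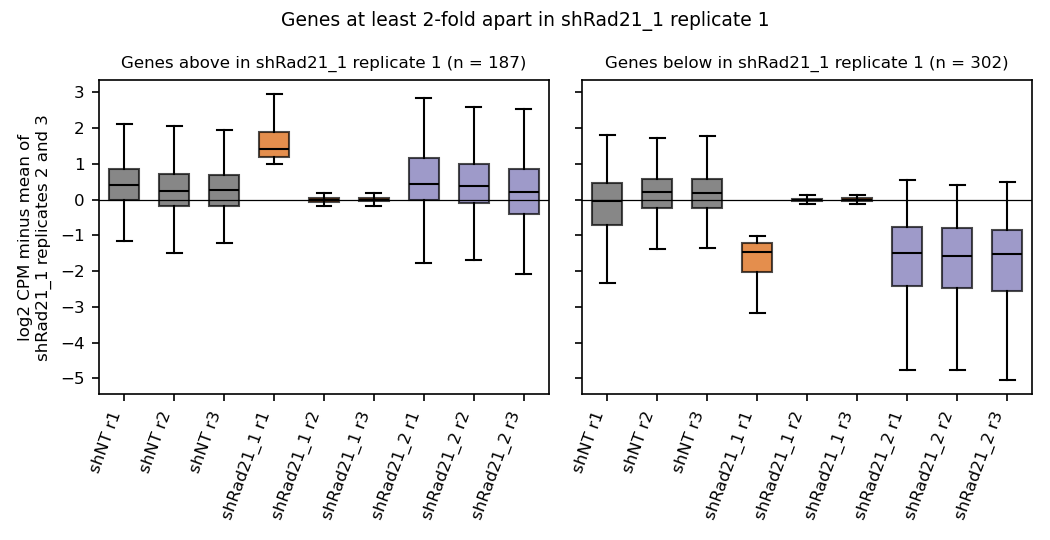
Log2 CPM of each library minus the mean of shRad21_1 replicates 2 and 3, over the 187 genes at least 2-fold above (left) and the 302 genes at least 2-fold below (right) in shRad21_1 replicate 1. Boxes show the median and quartiles over genes, whiskers reach to the last value within 1.5 times the box height, and r1 to r3 are the replicates. On the right, the medians of shRad21_1 replicate 1 and of the shRad21_2 libraries are at about the same level.

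Neighbouring genes were examined because loops tie genes to nearby enhancers. Position in mm10 was known for 13033 of the genes tested (96.1%). There were 14 runs of at least 3 neighbouring tested genes called in the same direction, 9 higher and 5 lower, against a background in which 4.19% and 5.63% of genes were called. The longest was Pcdhb2 to Pcdhb6, 5 genes called higher, 4 of them held. Eps15, Ttc39aos1 and Ttc39a, at chr4:109280268-109444745, fell by 0.48, 1.42 and 1.16, and all 3 were held. Ttc39aos1 is antisense to Ttc39a and the strand setting of the counting is not given, so that their reads cannot be told apart, and all 3 calls were lost with the close pairs summed. Tmed3, Ankrd34c and Ctsh, at chr9:89699206-90076089, fell by 0.50, 3.27 and 1.10, and the last 2 were held. The call of Ctsh was lost with the close pairs summed. Aldh3b1, Unc93b1 and Acy3, at chr19:3913491-3990007, fell by 1.03, 1.98 and 0.92, with 1 of the 3 held.

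In the other direction, Them6, Lynx1 and Ly6e, at chr15:74721204-74959905, rose by 0.60, 1.17 and 2.19, and the last 2 were held. Lynx1, a membrane-anchored modulator of nicotinic receptors, stood at 6.30, 7.20 and 6.48 CPM with shNT and at 18.1, 13.8 and 13.0 CPM with shRad21_1. Trim34a, Trim12a and Trim12c, genes of a cluster of antiviral TRIM proteins at chr7:104244457-104353362, were called higher by 2.74, 1.78 and 1.43, with 1 of the 3 held. They are related genes with 15, 33 and 144 counts in all with shNT and 91, 102 and 346 with shRad21_1. The runs on chromosome 14 (Gm3636, Gm10406 and Gm3696) and on chromosome X (Gm15107, Luzp4 and Gm15097) also hold near-identical copies, and reads could have been split among them. Myc, a growth-promoting transcription factor, was called higher by 0.72 with its neighbours 9930014A18Rik and Pvt1 at chr15:60822271-62378096, and 0 of the 3 were held. With the close pairs summed, the calls of Ly6e, Trim12c, Gm10406 and Gm3696 were lost.

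The remaining runs had at most 1 held gene each. Tpd52l1, Rnf217 and Nkain2 on chromosome 10 were called higher by 1.28, 0.49 and 1.16, with 1 of the 3 held. Cep170b, Cdca4 and Jag2 on chromosome 12 were called higher by 1.24, 0.50 and 1.09, with 1 held. Pgf, Eif2b2 and Mlh3, also on chromosome 12, were called lower by 1.55, 0.42 and 0.47, with 0 held. Itpripl2, Coq7 and Tmc7 on chromosome 7 were called lower by 1.00, 0.40 and 0.88, with 1 held. Pcdhb15, Pcdhb16 and Pcdhb17 were called higher by 1.10, 0.75 and 0.59, with 1 held. The calls of Nkain2, Itpripl2 and Pcdhb15, each the held gene of its run, were lost when the close pairs were summed.

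The median held gene spanned more of the genome than the median gene tested. The median span of protein-coding genes was 46.6 kb in 147 held higher genes (quartiles 14.7 and 127.0 kb) and 37.3 kb in 244 held lower genes (18.3 and 101.0 kb), against 25.5 kb over 12546 tested genes (10.9 and 62.0 kb). The spans overlapped widely, and the difference was not tested.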

How the data were processed

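The authors deposited 1 table of counts per gene symbol, as raw whole numbers. FastQC, cutadapt, Trim Galore, Bowtie2, RSEM and mm10 are listed in the submitters' processing notes. Their versions, the annotation, the strand setting and the rounding were not given in the sources used. The members and the lists of genes were chosen with earlier results of these data known. Groups came from the sample labels. Nothing states that libraries of a group are separate cultures, so that p-values measure the spread between these libraries, which may be technical.

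Counts were fitted with edgeR 4.0.16 (R 4.3.3; TMM, filterByExpr by group, glmQLFit and glmQLFTest, two-sided) over all 9 libraries as 3 group means, with Benjamini-Hochberg adjustment over 13560 genes. The SE is the absolute log2 fold change over the square root of F. On simulated data with 200 of 13560 genes changed 2-fold, 80.5% were recovered and 8 unchanged genes were called; close pairs of libraries were not simulated. Replicate numbers are shared between the groups. Deviations from the group means of same-numbered shNT and shRad21_1 libraries correlated at 0.242, 0.116 and 0.117 over genes, so that the replicate number was also fitted as a block, as an alternative; all values come from the fit without it unless the block is named. The pairing is a hint from the data and not from a label, and the cross pairs of replicates 2 and 3 correlated more closely, at 0.160 and 0.154.

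Alternatives were other scalings, the DESeq2 1.42.0 Wald test, limma-voom (limma 3.58.1), other filters, the 6 libraries alone, each library left out, close pairs summed and the block; the block on the 6 libraries alone was added after the data were seen. Genes were named by rule: Rad21 and Phf2; the 12 held genes with the largest rise and the 12 with the largest fall at a mean log2 CPM of at least 1; the next 6 and 6 at a mean of at least 5; the 5 and 5 with the largest opposite difference between the hairpins at a mean of at least 1; up to 3 held members per list; the 5 genes farthest above and the 5 farthest below in shRad21_1 replicate 1 (mean of at least 3); and members of runs. In comparisons of replicate 1, 0.1 CPM was added before the log2. Others named were chosen after their values were seen. A few genes that the rule names are not reported here. Positions came from GENCODE vM21 by symbol.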

Additional observations from a re-analysis of the deposited data

How the results depend on the processing

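The number of calls depended on how the libraries were used. Against 1331 genes called (568 higher and 763 lower), the DESeq2 Wald test called 2042 (910 higher), and the close pairs summed gave 132 (64 higher and 68 lower). The 6 libraries without the first shRad21_1 library gave 3389 (1573 higher and 1816 lower). Leaving out 1 library gave 460 to 1598 genes, 172 to 639 higher and 288 to 959 lower. With the replicate block, 1436 genes were called, 1192 of them shared with the 1331. Of the genes held under shRad21_1, 68 moved back between the hairpins (53 to 70 with 1 library left out), and 44 did so with the close pairs summed. The log2 fold change of Rad21 ran from -1.46 to -1.33 over the settings. Of 2030 values of the 113 named and held genes under the alternatives, 1973 kept the call. The other 57 kept the direction but not the call: 54 with the close pairs summed and 3 with the replicate block on the 6 libraries alone. The block changed no other call of these genes. Depth limits the fold changes of Fgf13, Luzp4 and Scg5, whose counts in one of the groups sum to 4, 4 and 1.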
